A study of Mus musculus with 8 samples.

Results

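The 39 genes described here encode proteins of mitosis and were chosen by name, with no measured value in the rule. They fall into 6 steps of division: entry (9 genes), spindle assembly (8), the spindle checkpoint and the anaphase-promoting complex (6), the centromere and the chromosomal passenger complex (6), condensin (5) and cytokinesis (5). A gene counted as measured when a probe bearing its symbol had a detection p under 0.01 on at least 1 of the 8 arrays. By that rule 23 of the 39 were measured, among 7456 measured genes in all.

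Entry into mitosis is driven by the kinase Cdk1 with its B-type cyclins, and the polo-like and Aurora kinases then build the spindle and sort the chromosomes. Most of these genes are transcribed late in the cell cycle, from promoters that carry a cell cycle homology region (CHR) and CCAAT boxes, which are bound by the MuvB complex and by NF-Y. Active p53 is known to lower them through its target Cdkn1a, which brings the repressive DREAM complex to such promoters. In mouse spleen the dividing cells include activated lymphocytes and, where blood is formed there, erythroid precursors.

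Each array held RNA from cultured splenocytes, pooled from the spleens of 4 C57BL/6 mice aged 5 to 6 weeks, so an array is a pool and not 1 animal. The mice were wild type (WT), p53-/- (null here) or Δ122p53, an allele that yields a p53 protein lacking its N-terminal part. Cells were given the topoisomerase II poison amsacrine at 1 µg/mL for 5 hours, or 4 Gy of gamma irradiation, and their controls were an ethanol carrier (30%) or no treatment. The groups were control and amsacrine in each of the 3 genotypes, plus irradiation in null cells. The null control had 2 arrays and each of the other groups had 1. The labels do not say which control received the carrier, so the carrier and amsacrine cannot be told apart where a control went without it. The labels leave unsaid whether the paired null controls were independent preparations, and the p-values below therefore reflect array-to-array spread that may be purely technical. Splenocytes are a mixture, and in bulk RNA fewer cells of a type and less RNA per cell cannot be told apart. Trp53 was not analysed here, so the genotype labels were not checked against their own gene.

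The promoters show what the genes share outside the arrays. RefSeq promoter windows (GRCm38.p6, 250 bases before to 50 after the gene start) were found for 31 of the 39 genes. On either strand the CHR letters TTTGAA occurred in 22 of those 31 windows (71%), against 20.2% of 27025 genes with a window. The letters CCAAT occurred in 25 of the 31 (80.6%) against 41.1%, and both motifs in 20 of 31 (64.5%) against 7.97%. Among further mitotic genes 36 of 68 windows held the CHR (52.9%), and among DNA replication genes 5 of 28 did (17.9%). Of the measured mitotic genes 17 had a window, and 13 of these held the CHR (76.5%). A CHR match sat near the start in most windows, with 21 of 28 matches between 50 bases before and 50 after it. Shown here are the stretches from 80 bases before to 50 after the start for the genes detected on every array that have a window, a choice of stretch made after the matches were seen. They lie at chr7:122159355-122159484 on the plus strand for Plk1, chr6:124830096-124830225 on the plus strand for Cdca3, chr2:172370521-172370650 on the minus strand for Aurka, chr2:119618218-119618347 on the plus strand for Nusap1. The other 4 lie at chr5:30666806-30666935 on the plus strand for Cenpa, chr11:117849157-117849286 on the plus strand for Birc5, chr6:125191537-125191666 on the minus strand for Ncapd2, chr7:80294371-80294500 on the plus strand for Prc1. Each is written 5′ to 3′ on the gene's own strand, and capitals mark CHR (TTTGAA) and CCAAT letters or their reverse complements.
Plk1: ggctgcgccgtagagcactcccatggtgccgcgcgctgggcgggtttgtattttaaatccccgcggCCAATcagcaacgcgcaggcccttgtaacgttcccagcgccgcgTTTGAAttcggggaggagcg
Cdca3: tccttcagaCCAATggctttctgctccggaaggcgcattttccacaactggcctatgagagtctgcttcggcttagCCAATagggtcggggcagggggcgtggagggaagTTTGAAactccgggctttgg
Aurka: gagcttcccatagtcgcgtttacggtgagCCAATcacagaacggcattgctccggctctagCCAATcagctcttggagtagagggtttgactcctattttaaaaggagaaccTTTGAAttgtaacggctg
Nusap1: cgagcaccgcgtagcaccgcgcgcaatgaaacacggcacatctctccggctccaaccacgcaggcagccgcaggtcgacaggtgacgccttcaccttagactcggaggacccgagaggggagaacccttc
Cenpa: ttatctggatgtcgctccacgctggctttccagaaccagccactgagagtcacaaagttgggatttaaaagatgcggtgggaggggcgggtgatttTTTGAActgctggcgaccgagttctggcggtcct
Birc5: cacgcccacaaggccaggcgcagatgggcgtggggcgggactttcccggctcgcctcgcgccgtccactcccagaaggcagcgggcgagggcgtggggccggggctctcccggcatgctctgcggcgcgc
Ncapd2: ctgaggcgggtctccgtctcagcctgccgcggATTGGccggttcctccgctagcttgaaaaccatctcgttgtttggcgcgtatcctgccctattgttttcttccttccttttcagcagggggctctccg
Prc1: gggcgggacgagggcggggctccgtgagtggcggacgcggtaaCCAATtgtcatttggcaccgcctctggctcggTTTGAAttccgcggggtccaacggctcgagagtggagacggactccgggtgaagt
Plk1, Cdca3 and Aurka carried CCAAT ahead of a CHR that lies after the start. Prc1 held CCAAT ahead of a CHR close to its start, and Cenpa held a CHR after its start with CCAAT letters farther upstream than the stretch shown. Ncapd2 held CCAAT within the stretch and its CHR outside it. Nusap1 and Birc5 held neither motif in the whole window, and the same was true of Mad2l1 and Ncaph, whose stretches are not shown. The correlation of these genes with the median profile of the other measured members was 0.98, 0.97, 0.80 and 0.88 in that order. Whether the motifs go with the array profiles was not tested. A match is a string of letters and not a shown binding site.

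**Figure D1:**
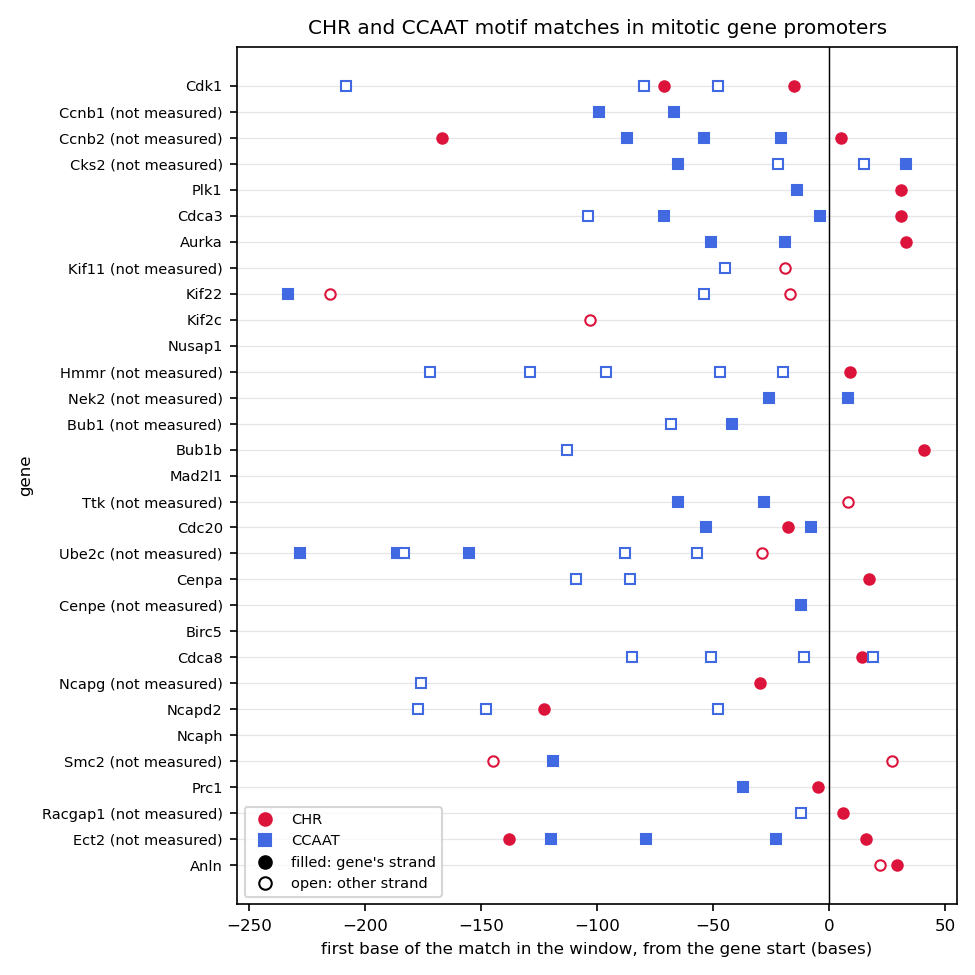
Positions of CHR (circles) and CCAAT (squares) letters in the promoter windows of the 31 mitotic genes with a RefSeq entry, in bases from the gene start (0 on the x axis); filled symbols are on the gene's strand and open ones on the other. Of 28 CHR matches, 21 lie from 50 bases before to 50 after the start, and genes marked as not measured were detected on no array or had no probe named here.

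Detection itself differed between the arrays. On both Δ122p53 arrays all 23 measured genes were detected, against 18 on the WT control, 18 and 20 on the null controls, and 18 after irradiation. After amsacrine only 10 were detected in WT and 12 in null cells. Over all 7456 genes the share detected lay between 78.9% and 86.1% on every array, so the arrays differed far less as a whole than in the mitotic genes. Plk1, Cdca3, Aurka, Nusap1, Cenpa, Birc5, Incenp, Ncapd2, Smc4 and Prc1 were detected on all 8 arrays. Cdc25c, the phosphatase that activates Cdk1, Foxm1, a transcription factor of the late cell cycle, and Cdca8, the passenger complex subunit borealin, were detected on the Δ122p53 arrays alone. These genes entered the set through the group where they are high, so a count over the 23 is a description of the set and not evidence for it.

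Of the other 16 genes, Ccnb1, Ncapg and Kif20a were not analysed here, for want of a probe with that symbol. For 13 more no probe was detected on any array, Δ122p53 included: Ccnb2, Ccna2, Cks2, Kif11, Hmmr, Nek2, Bub1, Ttk, Ube2c, Cenpe, Smc2, Racgap1 and Ect2. The lowest detection p among them was 0.0560, for Racgap1. A probe at background says little about its gene on this platform. Cdk1, Foxm1, Plk1, Nusap1, Cdca8 and Ncapd2 each had a second probe that was detected on no array beside the one that was. Cdc25c had 1 such probe beside 2 that were detected, and Anln had 2.

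Array values are normalised log2 intensities and follow 1 order throughout: WT control, WT amsacrine, null control 1, null control 2, null amsacrine, null irradiated, Δ122p53 control and Δ122p53 amsacrine. Because each probe has its own brightness, levels are compared between arrays and not between genes. The 2 null controls differed by a median of 0.30 over the 23 genes, with 17 of 23 higher on control 2, by up to 0.91 (Mad2l1). None differed by 2-fold or more, against 6.69% of all genes. Neutrophil and myeloid precursor markers had a median level of 8.40 on null control 1 and 10.24 on null control 2. B cell marker medians were 9.67 and 9.72 on these arrays, and T cell marker medians 11.01 and 11.31. The source of the differences within the pair was not tested. Differences are log2 units ± standard error (SE) from limma, and p-values are from limma with Benjamini-Hochberg adjustment over 7456 genes. Groups of 1 array were assumed to vary like the null control pair. Where 1 side was not detected, the words at least mark the fold as a lower limit. A gene is said to have risen or fallen, or to be called, only past an adjusted p of 0.05.

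**Figure D2:**
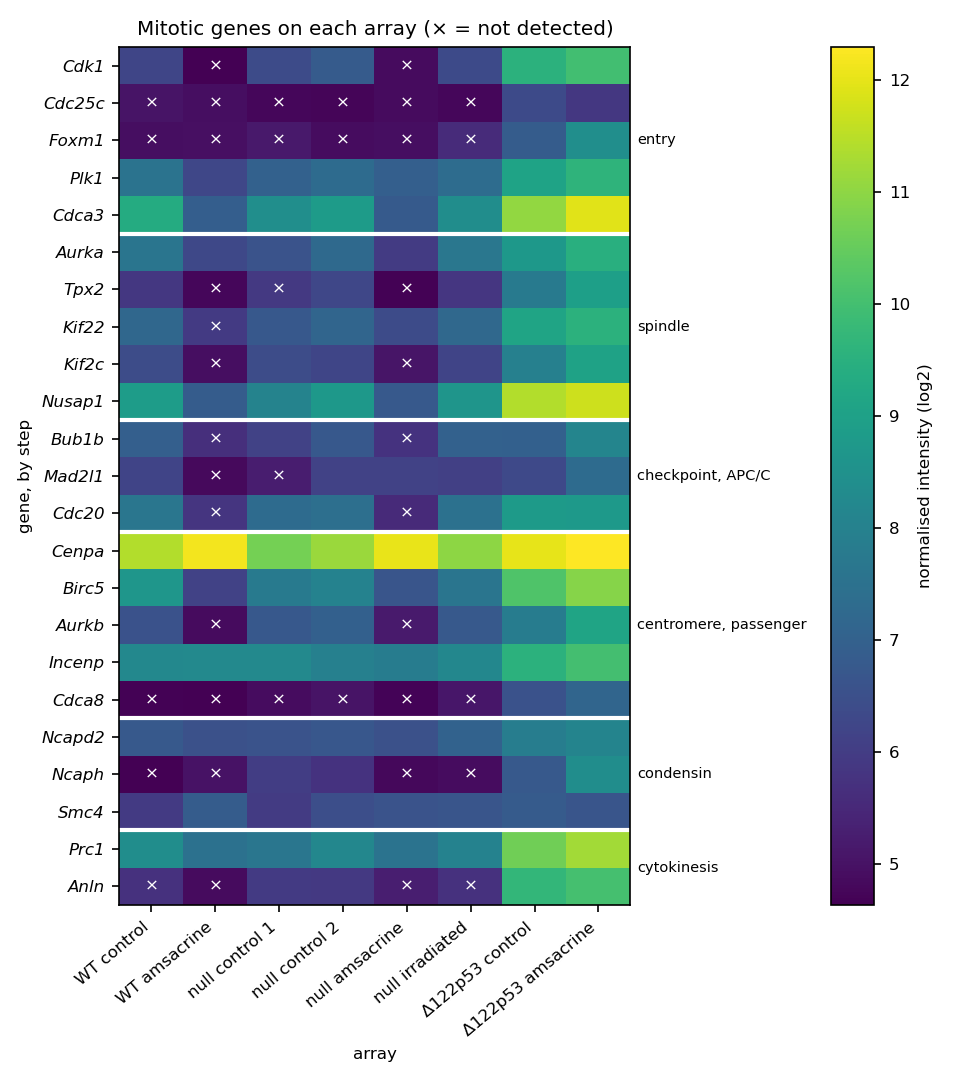
Normalised log2 intensity (colour) of the 23 measured mitotic genes (rows, by step) on each of the 8 arrays (columns); a cross marks an array on which the gene was not detected. The 2 Δ122p53 columns carry no cross, and the 2 amsacrine columns of WT and null cells carry the most, with 10 and 12 genes detected.

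Most of the mitotic genes were higher in Δ122p53 cells than in cells of the other genotypes. In an additive model over the control and amsacrine arrays, 19 of 23 were higher in Δ122p53 than in WT cells past an adjusted p of 0.05, and 0 were lower. The background was 6.61% of all genes called higher and 7.62% called lower. The median difference was 2.71, against -0.15 over all genes. Against null cells 17 of 23 were called higher and 0 lower, with a background of 4.75% higher and 3.58% lower, and the median was 2.31 against -0.07. Each Δ122p53 array lay above each WT array for 21 of the 23 genes, where 21.6% of all genes did so, and above each null control and amsacrine array for 22 of the 23, where 17.1% did. Cenpa was the exception in both and Smc4 in the first. The counts against WT and null cells moved to 12 and 8 without null control 1, to 11 and 9 with the authors' normalised table, and to 10 and 9 with no detection filter, where more genes were tested. They include Cdc25c, Foxm1 and Cdca8. With genes required to be detected on at least 1 array that is not Δ122p53, a filter chosen after seeing the data, the counts were 16 and 14. The background shares above belong to the main setting, and none is given for these alternative counts.

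Among the entry genes, Cdca3, a factor that helps to degrade the mitotic inhibitor Wee1, had values of 9.35, 6.91, 8.44, 8.83, 6.81, 8.39, 11.06 and 11.95. Plk1, the polo-like kinase of mitotic entry and spindle assembly, had values of 7.55, 6.28, 7.03, 7.33, 6.96, 7.36, 9.07 and 9.60. For both genes the Δ122p53 arrays were the highest of the 8, with no overlap. Cdca3 was higher than in WT by 3.37 ± 0.73 (adjusted p = 0.0303) and than in null cells by 3.68 ± 0.67 (adjusted p = 0.0231). For Plk1 the differences were 2.42 ± 0.42 and 2.28 ± 0.39, both past the threshold. Cdk1, the kinase that starts mitosis, had values of 6.25, 4.64, 6.39, 6.82, 4.86, 6.36, 9.56 and 9.96. Its differences, 4.32 ± 0.54 from WT and 3.92 ± 0.49 from null cells, include amsacrine arrays on which it was not detected. Foxm1 was at least 3.27-fold higher than in WT cells and Cdc25c at least 1.14-fold. Both were measured only through the Δ122p53 arrays, so their difference is a description and their test is not read.

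Among the spindle genes the Δ122p53 arrays stood highest too. Nusap1, which binds and bundles spindle microtubules, had values of 8.88, 6.86, 8.05, 8.73, 6.78, 8.62, 11.42 and 11.70. Aurka, the Aurora kinase of the spindle poles, had values of 7.62, 6.30, 6.59, 7.24, 5.97, 7.66, 8.71 and 9.46. Both Δ122p53 arrays were above all others for each gene. Nusap1 was higher in Δ122p53 by 3.70 ± 0.56 against WT (adjusted p = 0.0125) and by 3.91 ± 0.51 against null cells (adjusted p = 0.00809). The activator of Aurka, Tpx2, and the kinesins Kif22 and Kif2c also passed the threshold in both comparisons, with differences of 2.67 to 3.06. Aurka had the smallest difference of the 5 spindle genes in both comparisons, 2.13 ± 0.51 and 2.58 ± 0.47, and passed in both.

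Of the 3 checkpoint genes 1 passed. Cdc20, the activator of the anaphase-promoting complex, had values of 7.64, 5.81, 7.31, 7.42, 5.55, 7.50, 8.80 and 8.77, and was higher in Δ122p53 by 2.06 ± 0.46 against WT and 2.23 ± 0.42 against null cells, past the threshold in both. Its other 2 probes, detected on 1 and 2 arrays, gave smaller differences that did not pass. Bub1b, the checkpoint protein BubR1, had values of 6.97, 5.67, 6.14, 6.75, 5.77, 7.01, 7.0 and 8.11. Its Δ122p53 control value was close to those of the WT control and the irradiated null array, and only the Δ122p53 amsacrine array stood above the rest. Bub1b and Mad2l1, the checkpoint protein Mad2, did not pass in either comparison: their differences from WT were 1.23 ± 0.55 (adjusted p = 0.176) and 1.31 ± 0.58 (adjusted p = 0.171).

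Of the 5 centromere and passenger genes Cenpa differed least. Cenpa, the histone H3 variant that marks the centromere, had values of 11.40, 12.17, 10.69, 11.15, 12.04, 11, 12.00 and 12.29. Its 3 highest arrays were the amsacrine arrays of the 3 genotypes, and Δ122p53 differed from WT by 0.36 ± 0.30 (adjusted p = 0.447). Incenp, the scaffold of the passenger complex, had values of 8.23, 8.26, 8.25, 7.96, 7.85, 8.18, 9.55 and 10.01. The 6 arrays without Δ122p53 ran from 7.85 to 8.26 for Incenp, and both Δ122p53 arrays were above all of them. Birc5 (survivin), a passenger subunit, had values of 8.67, 6.15, 7.77, 8.02, 6.65, 7.63, 10.18 and 10.91, and was higher in Δ122p53 by 3.13 ± 0.67 against WT and 3.23 ± 0.62 against null cells. All 3 of its probes were called higher in both comparisons. Cdca8, measured only through the Δ122p53 arrays, was at least 1.90-fold higher than in WT cells, which is a description with no test read from it. Aurkb, the kinase of the complex, passed against WT (2.76 ± 0.70, adjusted p = 0.0460) and not against null cells (2.31 ± 0.65, adjusted p = 0.0804).

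Of the 3 condensin genes Smc4 did not pass in either comparison. Ncapd2, a regulatory subunit of condensin I, had values of 6.77, 6.52, 6.60, 6.70, 6.55, 7.05, 7.87 and 8.10. Smc4, the ATPase core subunit of both condensins, had values of 5.95, 6.87, 5.97, 6.47, 6.60, 6.65, 6.83 and 6.64. Ncapd2 was highest on the Δ122p53 arrays, whereas Smc4 was lowest on the WT control and highest on the WT amsacrine array. Ncapd2 was higher in Δ122p53 by 1.34 ± 0.24 against WT (adjusted p = 0.0186) and Smc4 differed by 0.33 ± 0.33 (adjusted p = 0.525). Ncaph, the kleisin of condensin I, was at least 3.13-fold higher than in WT cells (adjusted p = 0.0312), and its difference from null cells did not pass (2.02 ± 0.55, adjusted p = 0.0745).

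Both measured cytokinesis genes differed by genotype. Prc1, which bundles the microtubules of the central spindle, had values of 8.38, 7.50, 7.65, 8.17, 7.56, 8.04, 10.62 and 11.23. Anln, the actin-binding anillin of the cleavage furrow, had values of 5.72, 4.87, 5.94, 5.92, 5.29, 5.74, 9.70 and 10.04, and was detected only on the Δ122p53 arrays and the null controls. Both genes were far higher on the Δ122p53 arrays than on any other array. Anln was at least 15.3-fold higher than in WT cells (adjusted p = 0.00150) and was 4.22 ± 0.30 higher than in null cells (adjusted p = 0.000837). Prc1 was higher by 2.98 ± 0.39 and 3.17 ± 0.36. Between null and WT cells 0 of the 23 mitotic genes were called (background 0%), and 0 passed an unadjusted p under 0.05, where 4.68% of all genes were higher and 5.69% lower. The median difference was 0.00. The groups did not overlap for 1 gene higher and 1 lower, beside 8.56% and 15.1% of all genes.

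**Figure D3:**
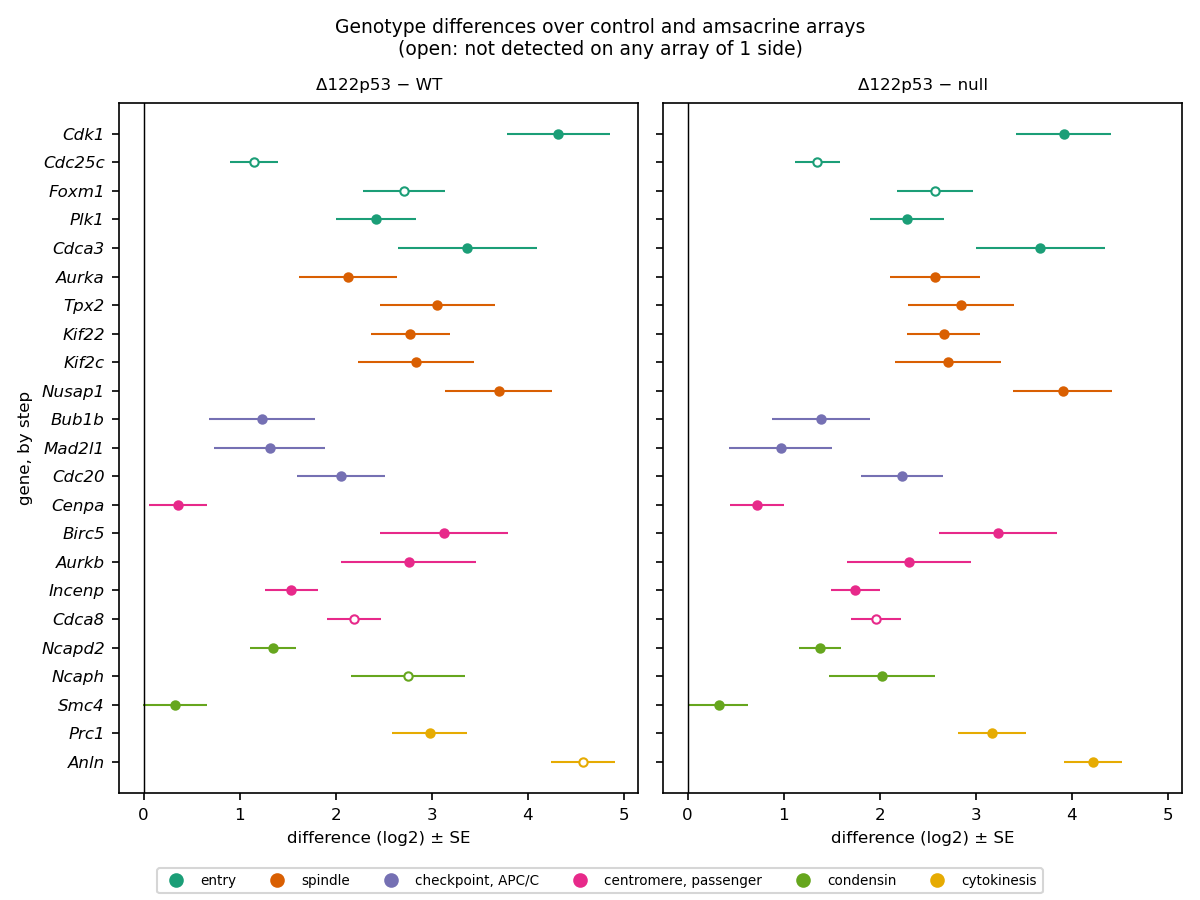
Differences (log2, ± SE of the additive limma model) of Δ122p53 from WT cells (left) and from null cells (right) over control and amsacrine arrays, for the 23 measured mitotic genes by step; an open circle marks a gene detected on no array of 1 side, whose size is a bound only. Cenpa and Smc4 lie nearest to 0, and Anln, Cdk1 and Nusap1 lie farthest out in both panels.

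Within 1 condition, 1 Δ122p53 array was set against 1 or 2 others, and the comparisons share that array. In control cells 2 genes were called higher in Δ122p53 than in WT, Cdk1 by 3.31 ± 0.42 (adjusted p = 0.0306) and Anln by at least 14.8-fold (adjusted p = 0.0173), with a background of 1.52% of all genes called higher. Against the null controls 9 were called: Cdk1, Foxm1, Plk1, Cdca3, Kif22, Nusap1, Birc5, Prc1 and Anln, with a background of 2.4%. After amsacrine 17 of 23 were called higher than in WT (background 3.04%) and 16 of 23 higher than in null cells (background 2.82%). The medians were 1.52 and 1.64 between controls and 3.38 and 3.49 between amsacrine arrays. No mitotic gene was called lower in these 4 comparisons, where 1.58%, 1.74%, 1.05% and 0.241% of all genes were. The 17 and 16 genes included Cdca3, higher by 5.03 ± 0.41 and 5.13 ± 0.41, and Nusap1, higher by 4.85 ± 0.47 and 4.93 ± 0.47. Cdk1 was at least 15.1-fold and 16.2-fold higher. Foxm1 and Cdca8 were measured only through the Δ122p53 arrays, so their place in these counts is a description and their tests are not read. With detection required on another array the 4 counts were 2, 8, 14 and 14. The background shares above belong to the main setting alone. All 4 counts became 0 with cyclic loess in place of quantile normalisation, with the authors' normalised table, or with no detection filter. The medians kept their sign in those settings.

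Other cell types moved with the same arrays. Of 19 erythroid genes 14 were measured, and their median level was 10.35 and 10.44 on the Δ122p53 arrays against 4.81 to 6.48 on the others. All 14 were detected on both Δ122p53 arrays and 4 to 8 on the others. Slc4a1, the red cell anion exchanger, was higher in Δ122p53 by 4.07 ± 0.42 against WT (adjusted p = 0.00481) and Tfrc, the transferrin receptor, by 2.38 ± 0.30 (adjusted p = 0.00822). Hba-a1 did not stand apart, at 14.95 and 14.91 on the Δ122p53 control and amsacrine arrays and 14.98 on the WT amsacrine array. Alas2 was 14.20 and 14.10 on the same Δ122p53 arrays and 12.01 on the WT amsacrine array. It differed by -2.70 between the null controls (control 2 minus control 1). Over the list, 12 of 14 were called higher against WT and 13 of 14 against null cells. Macrophage markers were lower, with a median level of 5.55 and 5.95 on the Δ122p53 arrays against 6.78 to 9.79 elsewhere, and 5 of 6 were called lower in each comparison. Of the 6 measured, 2 and 3 were detected on the Δ122p53 arrays and 5 or 6 on each of the others. T cell markers had a median of 9.13 to 9.74 on the Δ122p53 arrays against 10.47 to 11.31 on the others, and 8 of 9 were called lower against WT. On a linear scale the summed erythroid level was between 85679 and 93894 on the Δ122p53 arrays and 10364 to 38348 on the others, and the summed macrophage level 434 to 442 and 1096 to 6590. The part of these cell types in the mitotic difference was not tested.

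**Figure D4:**
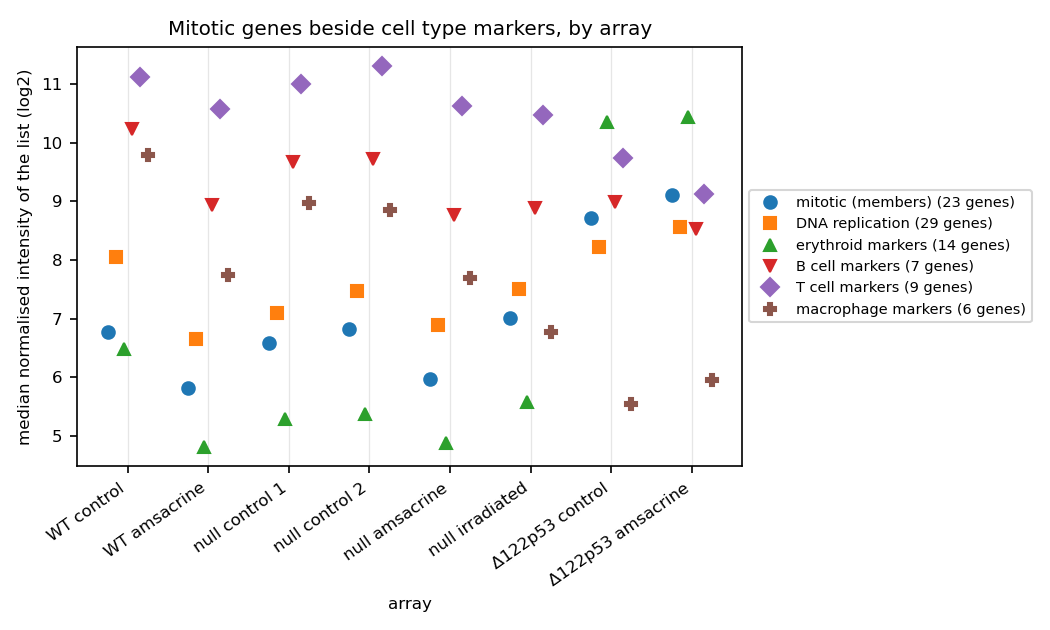
Median normalised log2 intensity of the measured mitotic genes, DNA replication genes and 4 cell type marker lists on each of the 8 arrays; symbols of an array are spread sideways for legibility. Mitotic and erythroid medians are both highest on the 2 Δ122p53 arrays, at 8.71 and 9.10 and at 10.35 and 10.44, while macrophage and T cell medians are lowest there.

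After amsacrine the mitotic genes were lower in WT cells, and no single gene passed the test. The median difference was -1.26 against 0.05 over all genes, and 18 of 23 were lower, of which 13 by at least 2-fold, where 12.2% of all genes were. In limma 0 of 23 were called and the background was 0%. At an unadjusted p under 0.05, 13 of 23 were lower and 0 higher, with 10.8% of all genes lower and 8.85% higher. Sizes are limited by detection, since only 10 of the 23 were detected on both arrays. Over those 10 the median was -1.08, and with undetected genes at their bound the median over the 23 was -0.24. Birc5 differed by -2.52 ± 0.39 (adjusted p = 0.0895), Cdca3 by -2.44 ± 0.41 (adjusted p = 0.0895) and Nusap1 by -2.02 ± 0.47 (adjusted p = 0.124). Cdc20 was at least 3.0-fold lower, Kif22 at least 2.20-fold, Bub1b at least 1.89-fold and Aurkb at least 1.42-fold. Kif2c, Cdk1 and Mad2l1 were at least 1.30-fold, 1.15-fold and 1.11-fold lower, and Tpx2 had no limit above 1. Of the 13 genes lower by at least 2-fold, 5 were detected on both arrays and 8 were not detected after amsacrine, so their fitted folds are set against background. Against that, Smc4 was 0.92 ± 0.43 higher (adjusted p = 0.305) and Cenpa 0.77 ± 0.42 higher (adjusted p = 0.374), and Incenp differed by 0.03 ± 0.39.

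Null cells, which lack p53, also had lower values after amsacrine, and no mitotic gene passed. The median difference after amsacrine was -0.64 against 0.02, and 19 of 23 were lower, 9 of them by at least 2-fold, where 8.41% of all genes were. None of the 23 was called in limma, with a background of 0.134% in either direction. At an unadjusted p under 0.05, 9 were lower and 1 higher, with 9.91% of all genes lower and 7.32% higher. Cdca3 differed by -1.82 ± 0.35 (adjusted p = 0.110), Nusap1 by -1.61 ± 0.41 (adjusted p = 0.146) and Birc5 by -1.25 ± 0.34 (adjusted p = 0.164). Cdc20 was at least 2.66-fold lower, Aurkb at least 1.88-fold and Cdk1 at least 1.57-fold. Cenpa was 1.12 ± 0.37 higher (adjusted p = 0.213). The median was -0.75 without null control 1 and -0.39 without null control 2.

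Taking WT and null cells together gave calls that neither genotype gave alone. In the additive model over 3 genotypes, 0 of 23 genes were called for amsacrine, where 2.07% of all genes were, and 3 were lower and 1 higher at an unadjusted p under 0.05, where 13.4% and 11.6% of all genes were. With the Δ122p53 arrays left out, an alternative given here after its calls were seen, 9 of 23 were lower and 1 higher, beside backgrounds of 9.67% and 7.3%. The 9 were Cdk1, Cdca3, Aurka, Tpx2, Kif2c, Nusap1, Cdc20, Birc5 and Aurkb. Cdca3 fell by 2.08 ± 0.25 (adjusted p = 0.00780), Birc5 fell by 1.79 ± 0.32 (adjusted p = 0.0185) and Nusap1 fell by 1.79 ± 0.28 (adjusted p = 0.0128). Aurka fell by 1.11 ± 0.27 (adjusted p = 0.0409). The other 5 calls lower were of genes undetected on both amsacrine arrays, so only a limit can be given. Cdc20 fell at least 2.83-fold, Aurkb at least 1.64-fold, Cdk1 at least 1.34-fold and Kif2c at least 1.30-fold, and for Tpx2 the limit leaves no fold. Cenpa rose by 0.97 ± 0.24 (adjusted p = 0.0430), the single mitotic gene called higher. Both amsacrine arrays lay below all 3 controls for 15 of the 23 genes, where 21.8% of all genes did so. By step, 4 of 5 spindle genes and 2 of 5 entry genes were called lower. So were 2 of 5 centromere and passenger genes and 1 of 3 checkpoint genes. The spindle count includes Tpx2, for which no fold is shown. Of the condensin and cytokinesis genes 0 of 3 and 0 of 2 were called. In the same fit, which has 5 arrays and 2 residual degrees of freedom, 6 of 7 B cell markers and 6 of 6 macrophage markers also fell. Of the erythroid markers 3 of 14 were called lower and of the T cell markers 3 of 9, with 0 called higher in each list. The part of these cell types in the mitotic calls was not tested.

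No difference between the WT and null responses passed the test. The difference of the 2 responses had a median of -0.21 against 0.01 over all genes, with 16 of 23 below 0, and 0 were called (background 0%). At an unadjusted p under 0.05 there was 1 gene each way, Mad2l1 lower at -1.82 ± 0.70 and Ncaph higher at 1.43 ± 0.52, both with undetected arrays, where 0.563% of all genes were lower and 0.952% higher. Relative to the median of all genes the difference was -0.22, and 0.04 when arrays were scaled to their medians. Of 10 known p53 targets 5 were measured. These genes, Cdkn1a, Mdm2, Phlda3, Ccng1 and Trp53inp1, had a median of 3.05 after amsacrine in WT cells, 0.36 in null and 0.23 in Δ122p53 cells, with 0 of 5 called in any. Cdkn1a itself had values of 8.16, 11.23, 4.97, 7.98, 8.24, 8.88, 9.45 and 10.06. It was not detected on null control 1, and the 2 null controls differed by 3.01 for it. B cell markers had a median amsacrine difference of -1.39 in WT and -1.47 in null cells, and macrophage markers of -2.10 and -1.28. T cell markers had medians of -0.54 and -0.63. Erythroid markers had medians of -0.55 and -0.23 over 14 genes, and of 0.86 and 0.33 over the 4 detected on both sides. Their part in the mitotic response was not tested.

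**Figure D5:**
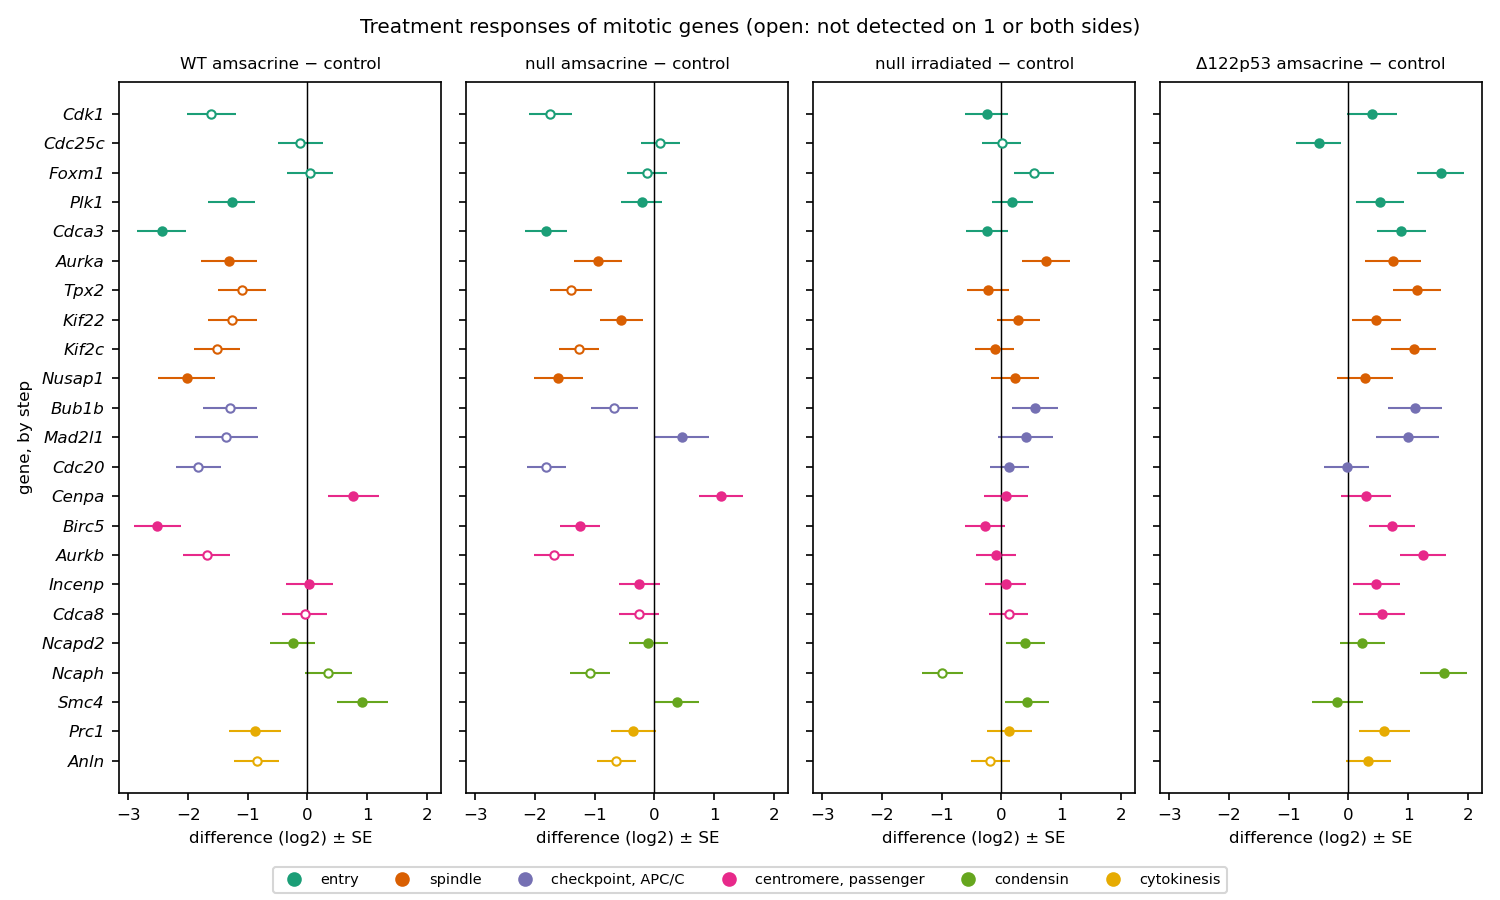
Treatment differences (log2, ± SE of the group-means limma model) of the 23 mitotic genes, by step, in 4 panels: amsacrine in WT cells, amsacrine in null cells, irradiation in null cells and amsacrine in Δ122p53 cells; open circles mark genes not detected on 1 or both sides. Most points lie below 0 after amsacrine in WT and null cells, with medians of -1.26 and -0.64, and above 0 in Δ122p53 cells, with a median of 0.56.

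In Δ122p53 cells most mitotic genes had higher values after amsacrine, and no gene passed the test. All 23 were detected on both arrays, 20 of 23 were higher, 6 of them by at least 2-fold (3.38% of all genes), and the median difference was 0.56 against 0.00 over all genes. None was called in limma (background 0%), and 5 were higher and 0 lower at an unadjusted p under 0.05, where 3.14% of all genes were higher and 3.73% lower. Those 5 were Ncaph (1.60 ± 0.39), Foxm1 (1.55 ± 0.39), Aurkb (1.25 ± 0.39), Tpx2 (1.15 ± 0.40) and Kif2c (1.09 ± 0.38). Foxm1, Cdc25c and Cdca8 were measured only through the Δ122p53 arrays, so their values are a description and the test of Foxm1 is not read. Cdc25c differed by -0.50 ± 0.38, Smc4 by -0.18 ± 0.43 and Cdc20 by -0.03 ± 0.38. Erythroid markers had a median difference of 0.08 between these arrays, and B cell markers of -1.37.

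Set side by side, 16 of 23 genes were lower in WT and higher in Δ122p53 cells after amsacrine, and 1 the other way. Against null cells the counts were 18 and 2. The share of all genes with such opposite signs was not counted. Of the 23 genes, 10 were detected on both sides in WT and 12 in null cells, so many of the lower values are set against background. The counts of signs and of unadjusted calls here include genes at background. Among them Foxm1, Cdc25c and Cdca8 were measured only through the Δ122p53 arrays. With undetected genes at their bound, the amsacrine medians were -0.24 in WT and -0.25 in null cells. The difference between the responses had a median of 1.80 against WT and 1.67 against null cells, beside -0.04 and -0.03 over all genes. Tested gene by gene, 0 of 23 were called in either comparison, with a background of 0% in each. At an unadjusted p under 0.05, 14 genes were higher against WT (6.08% of all genes) and 12 against null cells (5%). None was lower in either, where 4.71% and 3.34% of all genes were. Cdca3 had the largest difference against WT at 3.33 ± 0.58 (adjusted p = 0.332), followed by Birc5 at 3.25 ± 0.55. Against null cells Cdca3 had 2.70 ± 0.54 (adjusted p = 0.416) and Birc5 1.98 ± 0.52. These 2 comparisons share the Δ122p53 arrays. Cenpa and Smc4 had the opposite sign, at -0.47 ± 0.60 and -1.10 ± 0.61 against WT, and Cenpa turned to 0.14 when arrays were scaled to their medians.

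Irradiated null cells had mitotic levels near those of the null controls, which are the controls of the null amsacrine comparison too. The median difference was 0.12 against 0.04 over all genes, 15 of 23 were higher, and none differed by 2-fold or more, where 5.53% of all genes were 2-fold higher and 5.51% lower. No gene was called in limma (background 0%), and 1, Ncaph, was lower at an unadjusted p under 0.05, by at least 1.06-fold, where 6.61% of all genes were lower and 7.3% higher. Aurka was 0.75 ± 0.40 higher (adjusted p = 0.475) and Bub1b 0.56 ± 0.39 higher, while Birc5 differed by -0.27 ± 0.34. Macrophage markers had a median difference of -2.13 and B cell markers of -0.98 after irradiation. Neutrophil and myeloid precursor markers had a median of 0.79, with 9 of 9 higher, where 53.7% of all genes were. The part of these cell types in the mitotic values was not tested. The median was -0.03 without null control 1 and 0.20 without null control 2. Against the amsacrine array of the same genotype, irradiation gave values 0.67 higher in the median, with 20 of 23 higher. Again 0 were called (background 0%), with 10 higher at an unadjusted p under 0.05, where 5.87% of all genes were. Nusap1 was 1.84 ± 0.47 higher, Aurka 1.69 ± 0.46 and Cdca3 1.58 ± 0.41, and Cdc20 at least 2.93-fold, whereas Cenpa differed by -1.04 ± 0.42. No source used here states how long after irradiation the cells were taken, so the 2 treatments may differ in time as well as in agent.

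The 23 genes mostly shared 1 profile over the 8 arrays. The correlation of a gene with the median profile of the other measured members was 0.80 to 0.99 for 21 of them, and 0.32 for Cenpa and 0.17 for Smc4. These values are a description over 8 arrays that share genotypes and treatments, and the gap between the Δ122p53 arrays and the rest weighs on all of them.

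Other lists of cell division genes were set beside the mitotic genes. Of 81 other mitotic genes 44 were measured, and 18 were called higher in Δ122p53 than in WT cells and 18 higher than in null cells, with medians of 1.08 and 1.16 and 0 called lower. The 4 of them with the highest mean level were Kif23, Zwint, Cenpt and Ncaph2, and 0 of those passed. Kif23, a motor of the central spindle, was 1.36 ± 0.41 higher than in WT (adjusted p = 0.0696), and Ncaph2, a condensin II subunit, differed by -0.30 ± 0.23. After amsacrine the list had a median of -0.18 in WT and -0.06 in null cells, with 0 called in each. Of 35 DNA replication genes 29 were measured, and 7 were called higher in Δ122p53 than in WT and 6 higher than in null cells, with medians of 0.83 and 0.89. E2f2, an activator of S phase genes, was 2.72 ± 0.41 higher than in WT (adjusted p = 0.0125), whereas the helicase subunits Mcm4 and Mcm5 differed by 0.27 ± 0.24 and 0.20 ± 0.35. The replication median after amsacrine was -0.74 in WT, -0.40 in null and 0.83 in Δ122p53 cells, with 0 called in each. In the fit of WT and null cells alone 9.67% of all genes were called lower and 7.3% higher. There 9 of 29 replication genes fell and 0 rose. Of the other mitotic genes 4 of 44 fell and 3 rose, which is near the shares over all genes. The Δ122p53 response minus the WT response had a replication median of 1.41, and minus the null response 1.27, with 28 of 29 higher and 0 called in each. For the other mitotic genes these medians were 0.96 and 0.37. Whether the mitotic genes differ from these lists was not tested.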

How the data were processed

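Gene expression was read on 8 one-colour Illumina mouse beadchip arrays in 7 groups. The authors deposited probe intensity values with detection p-values, non-normalized per the file headers, for 24613 probes, and a second table of processed values, deposited on what the values show to be a log2 scale and used as an alternative. Its tool was lumi per the submitters' processing notes, and its settings are not known here. It kept each array's ranking of probe intensity (Spearman correlation 1), each column had a median of 7.30, no centring of genes was seen, and its Pearson correlation with the values used here was 0.966. Background correction (neqc, offset 16), quantile normalisation and log2 transformation were run with limma 3.58.1 under R 4.3.3. Of the probes, 20984 had 1 gene symbol, 1 had several and 3628 had none here. Probes with a detection p under 0.01 on at least 1 array were kept (10273), and the probe with the highest mean stood for its gene. Between 7710 and 8633 probes were detected per array, and the number of arrays limits the precision.

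Treatment contrasts and single-condition genotype contrasts came from a limma model with a mean per group (1 residual degree of freedom, from the null control pair, with prior degrees of freedom 4.78). Differences pooled over control and amsacrine came from an additive model on 7 arrays (3 residual degrees of freedom, prior 3.85), which also hold differences in response. Tests were 2-sided. A bound sets the brighter side against, per array of the other side, the higher of the lowest detected signal and the gene's own value. Scripts were tested on simulated data. Alternatives covered background, normalisation, filter, probe choice, model, arrays and the authors' table.

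The members, lists and tests were chosen with earlier results of these data known. The text gives the 2 measured members with the highest mean of each step on every array, the 3 largest differences each way among genes detected on both sides, and members past the threshold. Cdk1, Birc5 and the bounds and unadjusted calls named beyond these were chosen after their values were seen. The motifs and window lengths were set with the other choices, and the printed stretch of promoter was chosen later.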

Additional observations from a re-analysis of the deposited data

Results flagged for a closer look

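Over the 23 measured mitotic genes, the amsacrine response of Δ122p53 cells minus that of WT cells had a median of 1.80. Of the 23, 16 were lower in WT and higher in Δ122p53 cells. The same difference against null cells had a median of 1.67, with 18 of the 23 lower in null and higher in Δ122p53 cells. Each was singled out because the medians of the 2 genotypes had opposite signs. With undetected genes at their bound the medians were -0.24 in WT and -0.25 in null cells, beside 0.56 in Δ122p53 cells. In each genotype 0 of 23 genes were called for amsacrine. The difference in response was not tested over the list. Gene by gene, limma called 0 of 23 in either comparison, with a background of 0% in each. At an unadjusted p under 0.05, 14 were higher against WT and 12 against null cells, where 6.08% and 5% of all genes were. Sizes and directions are limited by detection, since 10 of the 23 were detected on both sides in WT and 12 in null cells. The counts of directions and of unadjusted calls run over all 23, so they include genes at background in WT or null cells. Foxm1, Cdc25c and Cdca8 were detected on the Δ122p53 arrays alone, so their directions are a description. Each response rests on 1 amsacrine array per genotype.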

How the results depend on the processing

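The direction of the median over the measured genes held in every alternative run for 14 of the 16 comparisons. The exceptions were irradiation in null cells, with a range of -0.03 to 0.20, and null against WT cells, with a range of -0.20 to 0.19. Sizes did depend on the processing: 57 medians out of 213 moved by more than the spread of the null control pair, most often with no detection filter (13 of 16), the authors' table (12 of 16), no background correction (11 of 16) and an offset of 50 (11 of 16). The medians ranged from -1.34 to -0.18 for amsacrine in WT, from -0.81 to -0.15 in null and from 0.31 to 0.57 in Δ122p53 cells. For Δ122p53 against WT they ranged from 1.26 to 2.76, against null cells from 1.23 to 2.51, and for the difference in response from 0.65 to 1.91 and from 0.63 to 1.74. For amsacrine over 3 genotypes the range was -0.73 to -0.03.

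The counts of 2, 9, 17 and 16 genes called within 1 condition became 0, 0, 0 and 0 under cyclic loess, under the authors' table and with no detection filter. With genes detected on all 8 arrays alone, where 10 of the 23 remain, the last 3 became 5, 6 and 7. The first became 1 with an offset of 50 or a detection p under 0.05, 10 with the mean of a gene's probes and 4 with each probe as its own feature, and the second became 3 with a detection p under 0.05. The counts of 19 and 17 over both conditions became 11 and 9 with the authors' table, 10 and 9 with no filter, 8 and 8 with genes detected on all 8 arrays, and 12 and 8 without null control 1, or 17 and 13 without null control 2. Amsacrine over 3 genotypes went from 0 to 10 without the Δ122p53 arrays, where 9.67% of all genes were called lower and 7.3% higher. For the other alternative counts no share of all genes is given, so they do not show whether mitotic genes changed more than others. Apart from the smaller or larger sets tested, the cause was not tested.

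Scaling to array medians moved the median of all genes by -0.32 for amsacrine in WT cells, and relative to it the mitotic median went from -1.30 to -1.06. The sign of Incenp after amsacrine in WT cells turned to -0.0081 with cyclic loess and -0.33 with that scaling, its WT minus null response to -0.047, Mad2l1 between irradiation and amsacrine to 0.00048, Cenpa in the Δ122p53 minus WT response to 0.14, and Foxm1 over the genotypes to -0.051 without the Δ122p53 arrays. One alternative, genes detected on at least 1 array that is not Δ122p53, was chosen after seeing the data and moved no count by more than 1.5 times. The chip as a block was not run, since headers name no chip. No paired analysis was possible because the groups share fewer than 2 replicate numbers.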
